A study of Gallus gallus with 18 samples.

Results

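In the uterus of laying hens, also called the shell gland, 60 genes stood highest in birds with strong shells relative to birds with weak shells when all 3 calcification periods were required to show the difference. They were chosen from the measured values. In each period the mean CPM (a count divided by the total of its library, scaled alike in all libraries) of the high strength libraries was divided by that of the low strength libraries, after adding 1 CPM to both. The smallest of the 3 log2 ratios was the score of a gene, and the 60 highest scores were taken. They came from 17057 Ensembl rows with a median under 1000 CPM, out of 20866 rows in the table. The shell gland receives the egg after the membranes are formed and draws calcium from the blood. It releases calcium, bicarbonate and matrix proteins into the fluid in which calcite crystals nucleate, grow and stop growing. Eggshell strength depends on how this mineral and its organic matrix are laid down.

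The hens were Hy-Line Brown, a commercial layer of brown eggs, all aged 42 weeks, and every library came from the uterus. There were 6 groups of 3 libraries, from hens of a high and a low eggshell strength group, each sampled at initiation, growth and termination of calcification. The labels do not tie a library to a single hen, so the spread between libraries may in part be technical. The files do not pair the Ensembl identifiers with gene names, and 0 rows of the RefSeq table at hand carried one. The members are therefore named by identifier, no role is given for any of them, and neither the tissue nor other cell types could be checked by markers. Libraries held 13322102 to 16125109 counts. Each library had counts for 60 of the 60 members, except low initiation replicate 2 with 59. Scaling factors by the trimmed mean of M values (TMM) were 0.677 to 0.905 in low termination, 0.824 in high termination replicate 3, and 1.002 to 1.23 in the other 14 libraries. In bulk tissue, fewer cells of a type and less RNA per cell cannot be told apart.

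The scores ran from 1.58 to 0.36 on the log2 scale, and 5 members were above 1, which is more than 2-fold in every period. Another 24 scored between 0.5 and 1, and 31 scored under 0.5. These values chose the members and are a description, with no test. The growth period set the limit for most of the list: the smallest ratio was that of growth for 34 members, of termination for 16 and of initiation for 10. Accordingly the median log2 ratio of the members was 0.57 in growth, 0.89 at initiation and 0.86 at termination. Over the 12676 Ensembl rows under the level limit that were abundant enough to test, these medians were 0.03, −0.10 and 0.30. The whole table was thus shifted towards high strength at termination on this scale. Scaled by TMM, the median of all rows at termination was 0.07 and that of the members 0.61.

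A ratio above 2-fold was found for 28 members at initiation, 12 in growth and 20 at termination, against 2.48%, 0.371% and 21.4% of all rows tested. Without any limit on size, 1655 of the 12676 rows tested had a higher mean in high strength in all 3 periods and 858 had a lower one. With TMM scaling these numbers were 1217 and 1270, close to even, so the lean towards high strength was not kept. At the limit of the list it was not kept either, counted over the 17057 Ensembl rows with a median under 1000 CPM. There were 31 rows as far below in all periods as the last member was above, beside the 60 members, and with TMM 44 rows lay as far above and 54 as far below. All 60 members kept a ratio above 0 in all 3 periods with TMM, and nothing is read from this. The rule had chosen them with ratios of at least 0.36, while the median of all rows at termination moved from 0.30 to 0.07.

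**Figure D1:**
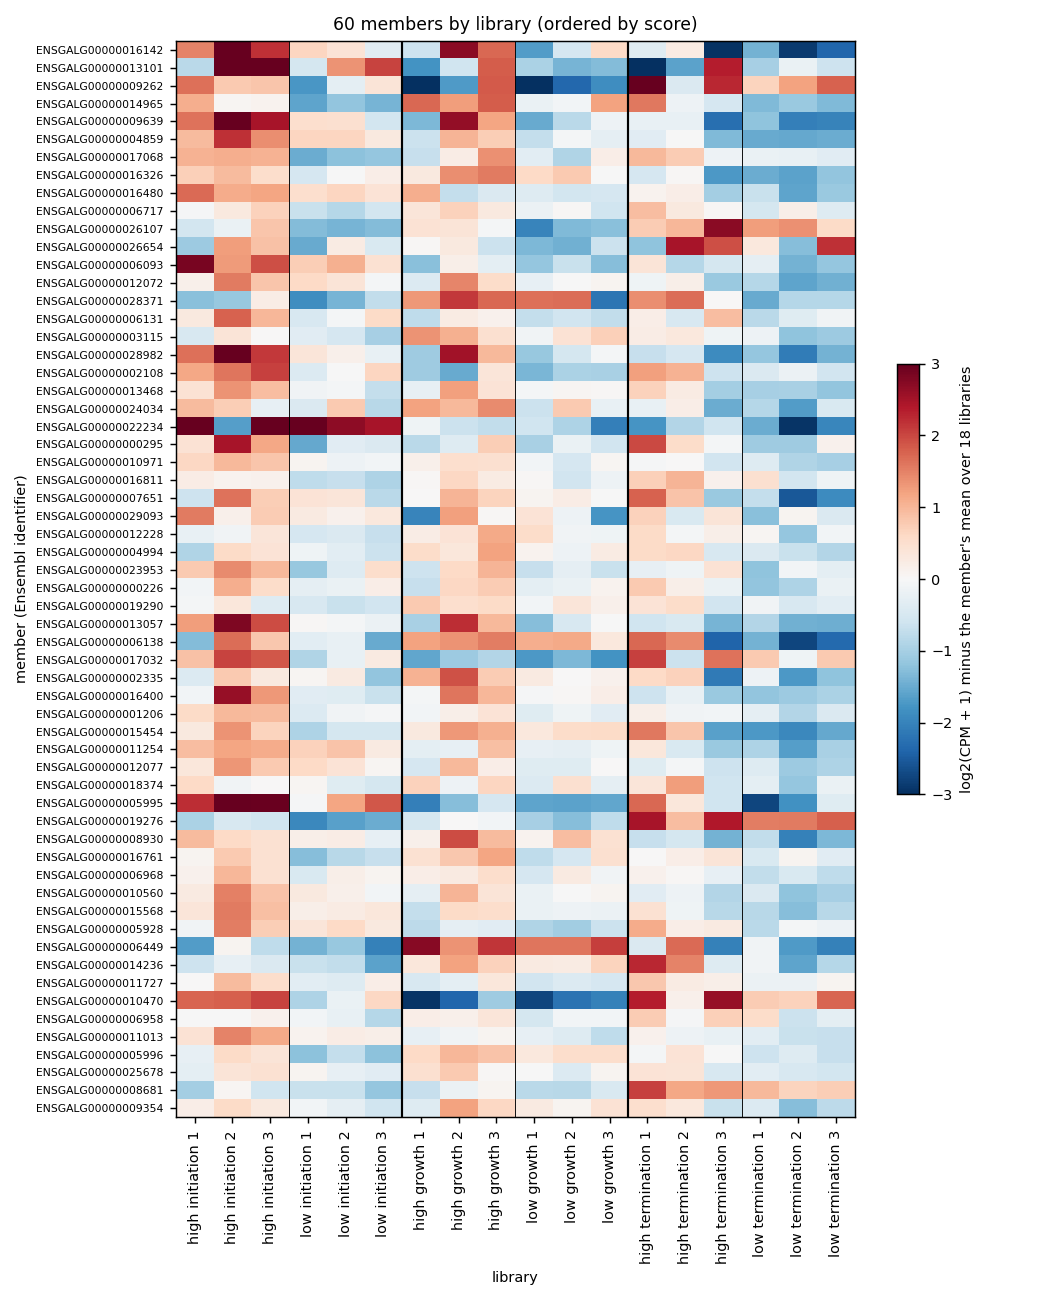
Level of each of the 60 members (rows, ordered by score) in each of the 18 libraries (columns), as log2(CPM + 1) minus the mean of that member over all libraries, with colours limited to 3 either way. High strength libraries are redder than the low ones of the same period for most members, and high growth replicate 1 and high termination replicate 3 depart from the other high libraries of their period.

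The first member, ENSGALG00000016142, had 92.0, 288 and 150.5 CPM in high initiation replicates 1, 2 and 3 and 51.0, 43.5 and 25.1 CPM in the low initiation libraries. In growth it had 20.8, 216 and 109 CPM in high strength and 9.43, 22.3 and 49.7 CPM in low strength. At termination the values were 24.8, 38.7 and 3.27 CPM against 11.4, 3.52 and 5.44 CPM. Only at initiation did the groups not overlap: high growth replicate 1 lay under low growth replicates 2 and 3, and high termination replicate 3 lay under all low termination libraries. The log2 ratios were 2.12, 2.05 and 1.58.

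ENSGALG00000013101 ranked second although the groups overlapped in every period. At initiation it had 6.61, 144 and 106 CPM in high strength and 8.21, 32.6 and 52.9 CPM in low strength. In growth it had 2.83, 7.80 and 46.2 CPM against 5.89, 4.04 and 4.38 CPM, and at termination 0.477, 3.39 and 67.7 CPM against 5.65, 10.6 and 7.66 CPM. One library held most of the high strength sum in growth and at termination, replicate 3 in both. Without high termination replicate 3 its termination ratio turned from 1.47 to −1.61 on the log2 scale.

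ENSGALG00000009262, the third, was apart at initiation, with 99.0, 54.3 and 56.0 CPM in high strength and 8.48, 24.9 and 41.1 CPM in low strength. Its growth ratio of 2.73, the highest of any member in growth, came from replicate 3 (high growth 1.74, 8.89 and 113 CPM, low growth 3.04, 5.21 and 7.83 CPM). At termination it had 367, 22.6 and 151 CPM against 49.4, 72.7 and 109 CPM, and high termination replicate 2 lay under every low library. Here replicate 1, not 3, was the highest of the high termination libraries.

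ENSGALG00000014965, the fourth, was the highest-ranked member with no overlap in any period. It had 7.96, 3.37 and 3.50 CPM against 0.407, 0.854 and 0.609 CPM at initiation. The growth values were 12.8, 8.97 and 13.8 CPM against 2.67, 3.00 and 8.71 CPM, and those of termination 11.6, 2.76 and 1.96 CPM against 0.681, 0.947 and 0.672 CPM. The narrowest gap was in growth, where the lowest high library and the highest low library nearly met. The low strength levels at initiation and termination were under 1 CPM in each library. The fold between means was 3.66, 2.22 and 3.65 in the order of the periods, with 1 CPM added.

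ENSGALG00000009639, the fifth, followed the first member. It had 46.8, 159 and 84.1 CPM in high initiation and 20.8, 20.6 and 9.54 CPM in low initiation, with no overlap. Growth gave 5.01, 94.6 and 33.9 CPM against 4.40, 7.82 and 12.9 CPM, and termination 12.1, 12.1 and 2.22 CPM against 5.65, 2.70 and 2.82 CPM. As in the first member, high growth replicate 1 and high termination replicate 3 fell among or under the low libraries.

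Members 6 to 15 had scores of 0.85 to 0.62. ENSGALG00000004859 had high strength CPM of 206 ± 92.7 at initiation (low strength 98.0 ± 12.9), 97.7 ± 49.1 in growth (53.7 ± 12.1) and 48.8 ± 20.9 at termination (23.0 ± 0.440), as mean ± SD (n = 3). The groups were apart at initiation and termination, with high termination replicate 3 at 26.1 CPM just above the highest low library at 23.5 CPM. ENSGALG00000017068 varied little between libraries at initiation, 32.5, 33.9 and 32.8 CPM against 4.82, 5.90 and 6.22 CPM, a 5.12-fold ratio. Its groups overlapped in growth (22.6 ± 16.4 against 12.5 ± 4.94 CPM), and at termination they were apart by a small margin, high termination replicate 3 standing at 13.6 CPM and the highest low library at 13.3 CPM.

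ENSGALG00000016326 had high strength CPM of 12.0 ± 1.94 at initiation (low strength 6.36 ± 1.74), 16.7 ± 7.23 in growth (9.999 ± 2.98) and 4.30 ± 2.83 at termination (1.91 ± 0.450), and its groups were apart at initiation. ENSGALG00000016480, the most abundant member by its median of 113 CPM, had high growth values of 264, 75.2 and 91.2 CPM beside low growth values of 94.4, 84.4 and 87.6 CPM. Here the high growth mean rested on replicate 1, the library that was lowest for most other members, and replicates 2 and 3 lay within or below the range of low growth. At initiation ENSGALG00000016480 was apart, at 319.7 ± 75.7 against 179 ± 14.7 CPM. ENSGALG00000006717 had log2 ratios of 1.03, 0.69 and 0.67 in the order of the periods, and of 1.04, 0.64 and 0.39 with TMM. It had 4.504, 5.95 and 8.07 CPM at initiation (low strength 2.58, 2.13 and 2.84), 6.32, 8.09 and 5.98 CPM in growth (4.03, 4.75 and 2.76) and 9.67, 5.96 and 4.77 CPM at termination (2.93, 5.41 and 3.36). Its groups overlapped at termination only.

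ENSGALG00000026107 was apart at initiation and in growth, its growth values being 6.68, 6.42 and 4.42 CPM in high and 0.434, 1.24 and 1.38 CPM in low strength. At termination it had 8.65, 10.3 and 36.1 CPM against 12.5, 13.6 and 7.46 CPM, and without replicate 3 the ratio turned from 0.66 to −0.22. ENSGALG00000026654 overlapped in every period and varied widely at termination, 4.84, 74.0 and 50.3 CPM against 15.6, 4.53 and 60.3 CPM. ENSGALG00000006093 was mainly a gene of initiation, at 15.8 ± 9.15 against 5.46 ± 1.36 CPM there and at 1.97 ± 1.35 against 0.871 ± 0.434 CPM in growth. ENSGALG00000012072 had 129 ± 61.5 against 83.1 ± 18.8 CPM at initiation with overlapping groups. ENSGALG00000028371 was apart at termination alone, 51.6, 63.9 and 19.3 CPM against 6.06, 10.2 and 10.1 CPM, while low growth replicate 3, at 3.45 CPM, lay far below the other low growth libraries at 62.4 and 63.6 CPM.

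**Figure D2:**
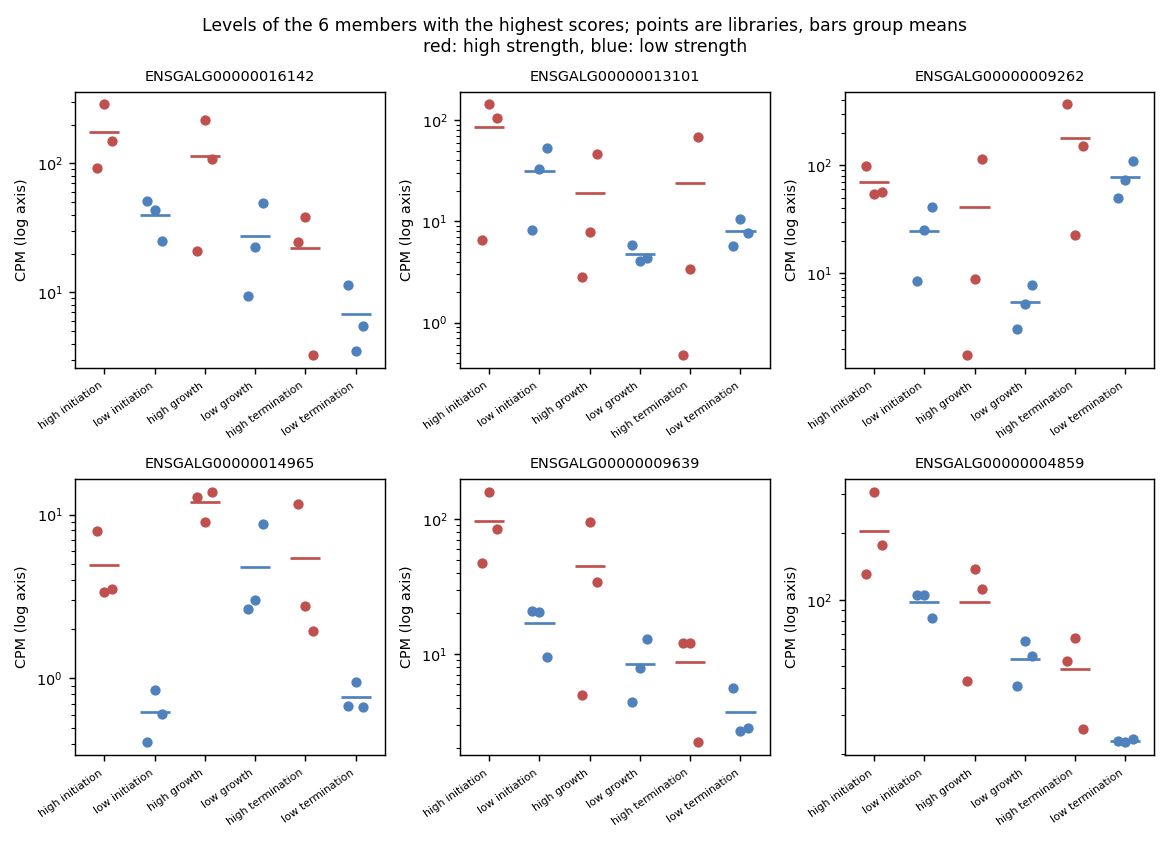
CPM on a log axis of the 6 members with the highest scores in the 6 groups, red for high and blue for low strength; each point is a library and each bar a group mean. Group means are higher in high strength in every period, but the points of ENSGALG00000013101 overlap in all 3 periods and those of ENSGALG00000014965 in none.

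At the lower end, the last 3 members were ENSGALG00000025678, ENSGALG00000008681 and ENSGALG00000009354, with scores of 0.37, 0.36 and 0.36. The next rows, ENSGALG00000025506, ENSGALG00000006051 and ENSGALG00000015491, scored 0.36, 0.36 and 0.36. ENSGALG00000009354 stood at 72.5 ± 37.0 against 56.2 ± 6.89 CPM in growth, and ENSGALG00000006051, just outside, at 5.91 ± 2.54 against 4.39 ± 0.879 CPM. In both, the difference between means was smaller than the SD of the high growth libraries.

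Group means hid how far single libraries agreed. The 3 high libraries all lay above the 3 low ones for 37 of 60 members at initiation, 14 in growth and 13 at termination. Of all rows tested, 13.3%, 4.17% and 8.15% did so. The rule used these same ratios, so nothing is read from the excess. Scaled by TMM, the counts were 41, 15 and 6 in the order of the periods, beside 15.2%, 3.47% and 6.08% of all rows. No period was free of overlap for 13 members, as for 76.7% of all rows. Exactly 1 period was for 34 members (21.0% of all rows), exactly 2 periods were for 9 (2.18%) and all 3 for 4 (0.0710%).

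The 4 members with no overlap in any period were ENSGALG00000014965, given above, ENSGALG00000001206, ENSGALG00000011013 and ENSGALG00000005996. ENSGALG00000001206 had high strength values of 5.25, 7.31 and 7.14 CPM at initiation (low strength 2.17, 2.92 and 3.11), 2.98, 3.79 and 4.67 CPM in growth (2.29, 2.87 and 2.32) and 3.81, 2.95 and 3.00 CPM at termination (2.52, 1.28 and 2.15). ENSGALG00000011013 had 38.5, 82.0 and 63.1 against 30.5, 33.3 and 32.4 CPM, then 24.0, 26.4 and 30.3 against 23.8, 21.5 and 16.3 CPM, then 30.9, 25.5 and 24.4 against 22.5, 17.6 and 17.3 CPM. ENSGALG00000005996 had 1.35, 3.15 and 2.64 against 0.204, 0.711 and 0.203 CPM, then 3.27, 4.59 and 4.05 against 2.48, 3.06 and 3.01 CPM, then 1.70, 2.70 and 1.76 against 0.817, 1.15 and 0.739 CPM. The margins were narrow in places, as in growth for ENSGALG00000011013. ENSGALG00000014965 was among the 15 highest scores, and the other 3 ranked 38, 56 and 57.

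Of the 9 members free of overlap in 2 periods, ENSGALG00000010971 was apart at initiation and in growth, with 32.7, 42.6 and 38.3 CPM at initiation (low strength 22.2, 18.8 and 19.9), 23.6, 30.1 and 29.7 CPM in growth (19.8, 14.5 and 22.1) and 20.6, 21.4 and 13.8 CPM at termination (15.7, 10.8 and 10.01). ENSGALG00000006958 was apart in the same periods at lower levels, with 6.08, 6.02 and 6.78 CPM at initiation (low strength 5.77, 5.05 and 2.91), 7.19, 6.93 and 8.16 CPM in growth (3.91, 5.67 and 5.70) and 11.1, 5.96 and 10.6 CPM at termination (9.46, 3.52 and 4.77). ENSGALG00000015568 was apart at initiation and, by less than 0.1 CPM, at termination, where the values were 24.0, 15.7 and 9.27 CPM in high and 9.19, 6.49 and 9.27 CPM in low strength. All 9 included initiation among their periods, as the lists above and the remaining members ENSGALG00000004859, ENSGALG00000017068, ENSGALG00000006717, ENSGALG00000026107, ENSGALG00000019290 and ENSGALG00000019276 show.

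Separation at termination alone was seen in 6 members, as in 6.60% of all rows tested. ENSGALG00000003115 had 7.08, 7.65 and 5.36 CPM in high and 5.31, 2.03 and 2.28 CPM in low termination, replicate 3 lying just above the low libraries. ENSGALG00000006968 had 1.23, 1.07 and 0.718 CPM beside 0.204, 0.473 and 0.202 CPM, and ENSGALG00000005928 4.29, 1.82 and 1.96 CPM beside 0.408, 1.35 and 1.21 CPM. These are low levels, and ENSGALG00000011727, at 1.77, 0.878 and 0.784 CPM beside 0.408, 0.406 and 0.672 CPM, was among the least abundant of the list. The other two were ENSGALG00000028371 and ENSGALG00000008681. Separation in growth alone was seen in 4 members and 3.09% of all rows: ENSGALG00000024034, ENSGALG00000004994, ENSGALG00000006138 and ENSGALG00000002335. The last had 13.2, 25.0 and 10.7 CPM in high and 7.38, 5.93 and 6.51 CPM in low strength in growth, but at termination 9.47, 10.2 and 0.588 CPM beside 5.24, 1.08 and 2.02 CPM, replicate 3 lying under every low library.

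In growth the difference was carried mainly by high libraries 2 and 3. High growth replicate 1 was the lowest of its group for 44 of 60 members, against 49.2% of all rows tested. Its median log2 ratio over the low growth mean was 0.01, and 30 members lay above that mean. In replicates 2 and 3 the medians were 0.80 and 0.70, with 54 and 60 members above. Of all rows tested, 39.5%, 56.1% and 56.5% lay above it in replicates 1, 2 and 3. Because the growth ratios entered the score, nothing is read from the members' counts beside these shares. One library held more than 60% of the high growth sum for 13 members (2.44% of all rows tested). The median SD of log2(TMM CPM + 1) among the members was 0.502 in high growth and 0.261 in low growth, and 0.217 and 0.173 over all rows. A score from group means lets in genes raised in 1 high library. Nothing is therefore read from the wider spread of the members or from the 13.

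At initiation each high library stood above the low mean for most members. High initiation replicates 1, 2 and 3 lay above the low initiation mean for 47, 58 and 59 members, where 35.7%, 41.6% and 42.8% of all rows tested did. The median log2 ratios of the members were 0.65, 1.16 and 0.91. Since the initiation ratios entered the score, nothing is read from the members' counts and medians beside the shares of all rows. Replicate 2 was the highest of the 3 for 42 members (45.3% of all rows tested) and replicate 1 the lowest for 47 (56.1%). The members spread about as widely as in growth, and the limit given there applies here too. Their median SD was 0.495 in high and 0.258 in low initiation, against 0.176 and 0.224 over all rows. ENSGALG00000022234 was an exception, at 166, 1.79 and 111 CPM in the high libraries and 85.3, 55.3 and 47.4 CPM in the low ones. Replicate 2, the highest for most members, was the one with almost none of it. The 60 members together took 3547 ± 953 CPM in high and 1522 ± 85.8 CPM in low initiation (mean ± SD, n = 3). In growth the sums were 2366 ± 762 and 1390 ± 92.5 CPM, and at termination 2437 ± 868 and 1109 ± 199 CPM. Genes were chosen for higher means in high strength, so these sums restate the choice. The share of bases at quality 30 or above also differed between high and low initiation, 91.6% ± 0.0503 against 94.7% ± 0.445. Its part in the ratios was not tested.

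At termination the 3 high libraries behaved differently. The members' median log2 ratio over the low termination mean was 1.03 in replicate 1, 0.86 in replicate 2 and 0.25 in replicate 3, where all rows tested had medians of 0.37, 0.36 and 0.05. Replicates 1, 2 and 3 exceeded every low termination library for 53, 48 and 26 members, and for 54.5%, 53.9% and 26.9% of all rows tested. Replicate 3 was the lowest of the group for 41 members (56.2% of all rows tested). It lay at or under the low mean for 16 members and above it for 44, where 56.2% of all rows tested lay above it. It had less than 0.5 times the level of both other libraries for 23 members and more than 2 times both for 2. Among all rows tested these shares were 29.3% and 11.3%. Termination ratios also entered the score, so nothing is read from the members' medians and counts beside those of all rows.

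Leaving replicate 3 out, 58 of 60 members kept a termination ratio above 0, the exceptions being ENSGALG00000013101 and ENSGALG00000026107. The members' median ratio was then 0.89, against 0.37 for all rows. The rule used the termination ratios, and replicate 3 was the lowest for 41 members, so nothing is read from the 58. In replicates 1 and 2, 64.3% and 63.1% of all rows tested lay above the low termination mean. Without replicate 3 the high and low libraries no longer overlapped for 44 members, where 48.4% of all rows tested did not overlap either. ENSGALG00000006138 is an example, chosen after its values were seen, with 42.8, 34.3 and 1.502 CPM in high and 3.95, 0.947 and 1.61 CPM in low termination. ENSGALG00000014236 had 468, 274 and 73.7 CPM against 89.3, 31.7 and 53.1 CPM, and ENSGALG00000015454 233, 137 and 24.3 CPM against 22.7, 19.5 and 26.0 CPM. In each of these 3 genes, replicate 3 was within the range of the low libraries. ENSGALG00000010470 and ENSGALG00000017032 differed from this: replicate 2 was their lowest library, at 36.4 and 27.4 CPM, while replicates 1 and 3 held 169 and 205 CPM of the former and 184 and 137 CPM of the latter. The GC content of reads was 49.3%, 50.01% and 51.8% in high termination replicates 1 to 3 and 51.9% ± 1.22 in low termination (n = 3); its part in the ratios was not tested.

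**Figure D3:**
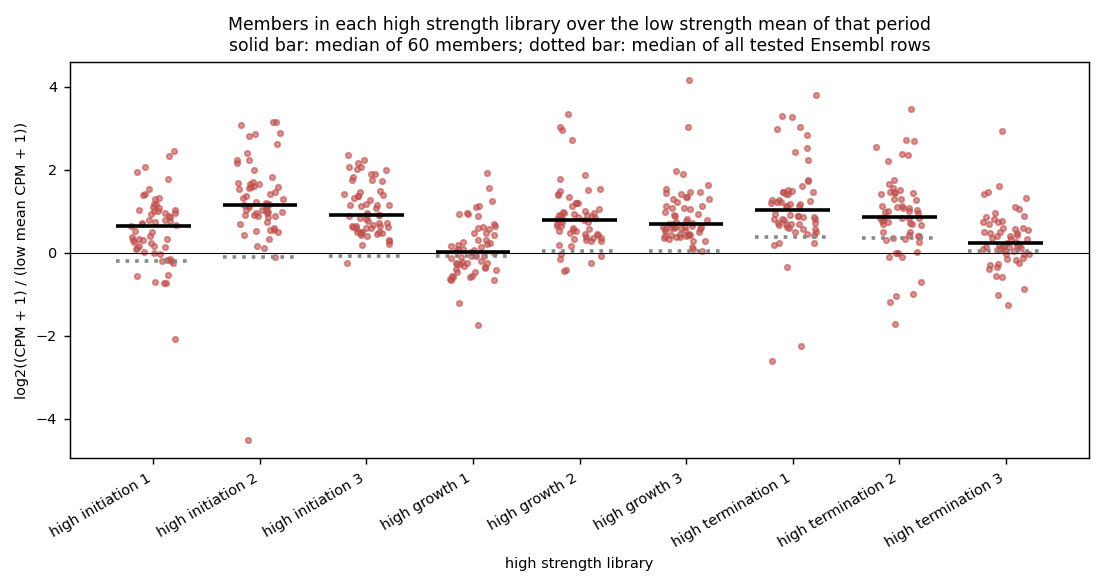
Log2 of (CPM + 1) in each high strength library over the low strength mean of the same period, one point per member; solid bars are medians of the 60 members and dotted bars medians of all tested Ensembl rows. The median of the members is near 0 in high growth replicate 1 and lower in high termination replicate 3, at 0.25, than in the other high termination libraries.

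Several members moved together between libraries of the same group. The rule used the same library values through the group means, so genes raised in the same high libraries could enter together, and nothing is read from how many did. After each group mean was taken out, the remaining deviations of log2(TMM CPM + 1) over the 18 libraries were compared with those of the first member, ENSGALG00000016142. Pearson's r was above 0.8 for 7 other members, where 0.994% of all rows tested reached it. The limit of 0.8 was chosen after the values were seen, and the correlations are a description. Taking out the group means leaves 12 free deviations, and all genes of a library share its depth and scaling. The closest was ENSGALG00000009639 at 0.945, followed by ENSGALG00000028982 at 0.899, ENSGALG00000012072 at 0.893, ENSGALG00000009354 at 0.862, ENSGALG00000013057 at 0.856, ENSGALG00000004859 at 0.830 and ENSGALG00000010560 at 0.819. The median r with the first member was 0.318 over the other members and 0.0672 over all rows tested. Over all 1770 pairs of members the median r was 0.180, so most of the list did not move as 1 group.

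These 8 genes were highest in replicate 2 of high initiation and of high growth, as 45.3% and 44.6% of all rows tested were. They were chosen for deviations like those of the first member, so nothing is read from the shared peaks. ENSGALG00000028982 had 108, 276 and 151 CPM in high initiation, 15.8, 199 and 66.9 CPM in high growth and 20.7, 23.5 and 8.36 CPM in high termination. Its low strength values were 43.7, 37.6 and 28.8 CPM, then 14.9, 23.4 and 32.6 CPM, then 14.7, 7.17 and 12.1 CPM. ENSGALG00000013057 had nearly the same levels, 98.2, 289.5 and 161 CPM in high initiation, 20.1, 190.1 and 80.1 CPM in high growth and 26.2, 29.2 and 14.7 CPM in high termination. The low strength libraries of ENSGALG00000013057 held 41.2, 38.8 and 35.9 CPM at initiation, 16.2, 28.6 and 39.8 CPM in growth and 21.6, 14.1 and 14.0 CPM at termination. High growth replicate 1 was at or near low strength levels in both. ENSGALG00000012072 and ENSGALG00000010560 varied less, from 49.4 to 181 CPM and from 29.9 to 73.9 CPM within high growth. Whether any of these rows share reads cannot be seen in the table.

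**Figure D4:**
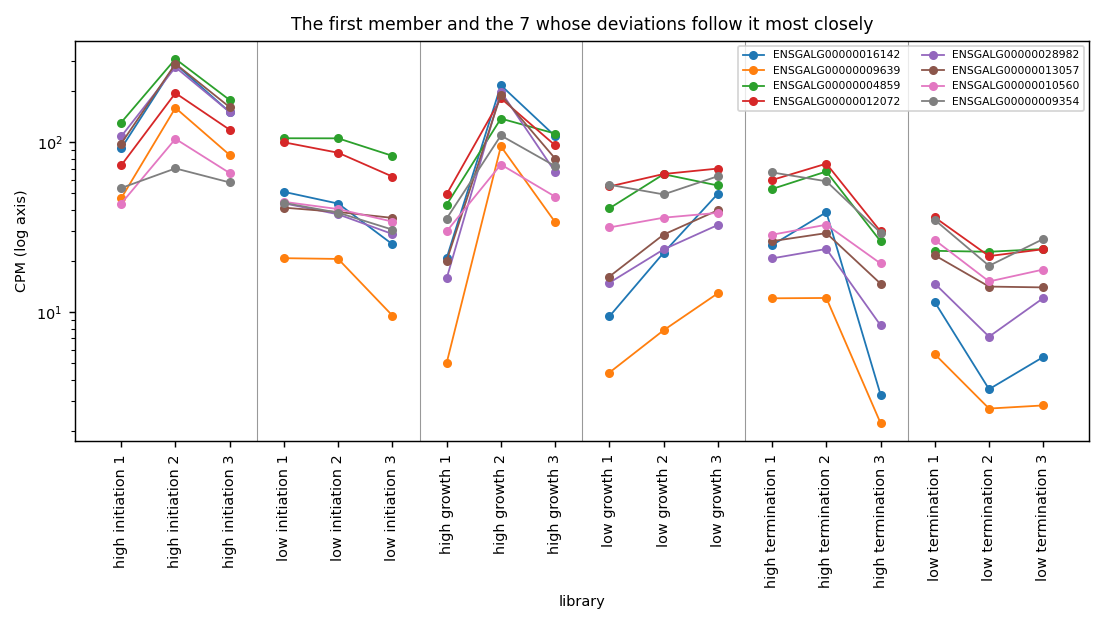
CPM on a log axis of the first member and the 7 members whose deviations from group means correlated with it above 0.8, in the 18 libraries; lines join the libraries of a group and carry no order. All 8 peak in replicate 2 of high initiation and of high growth and fall in high termination replicate 3 relative to the other 2 libraries of that group. The genes were chosen for this likeness, and high termination replicate 3 was the lowest of its group for 56.2% of all rows tested.

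Change between periods, averaged over the strength groups, is a contrast that the rule did not use, although the same libraries enter both. It was tested over all 16110 genes above 1 CPM in at least 3 libraries. All 60 members passed that filter, which the rule favours by asking for higher levels in 1 strength group. A library that raises a high strength mean raises both the ratio and the average of its period. Nothing is therefore read from the members' shares against those of all genes. From initiation to growth 12 members rose and 14 fell (adjusted p under 0.05 by the quasi-likelihood test of edgeR), together 43.3% of the list, where 55.7% of all genes changed. From growth to termination 12 rose and 18 fell, together 30 of 60 members, against 54.9% of all genes. Between initiation and termination 8 rose and 19 fell, 45.0% against 24.2% of all genes. By direction, 27.1% of all genes rose and 28.6% fell from initiation to growth, 28.5% and 26.4% from growth to termination, and 12.4% and 11.8% from initiation to termination. Median log2 changes of the members were −0.11, −0.31 and −0.34 in these 3 comparisons, and −0.05, 0.01 and 0.05 over all genes. Each pair of these comparisons shares the libraries of 1 period.

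With scaling to total counts, the median change of all genes moved to −0.14, −0.28 and −0.34. Of the members called from growth to termination, 29.4% then rose, against 40.0% with TMM, and between initiation and termination 18.5% against 29.6%. Over all genes called, the shares that rose went from 52.0% with TMM to 30.9% with total counts, and from 51.1% to 16.8%, so that with total counts the members' shares lay near those of all genes. No member was called in opposite directions by the 2 scalings, in any of the 3 comparisons (0 in each). The count of rises between initiation and termination, 8 by edgeR with TMM, depended on the tool: it was 5 with total counts, 13 by DESeq2 and 18 by limma-voom, where 6.21%, 15.9% and 26.9% of all genes rose. In all, limma-voom called 40 members in this comparison, against 56.5% of all genes, and 40 from initiation to growth, against 75.8%.

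The largest rises from initiation to growth among the members were those of ENSGALG00000006449 and ENSGALG00000028371. ENSGALG00000006449 had 4.35, 17.2 and 9.07 CPM in high and 5.43, 6.83 and 3.18 CPM in low initiation, and 112, 42.7 and 75.0 and 50.7, 51.1 and 71.5 CPM in high and low growth. Initiation and growth did not overlap, and its log2 change was 3.31 ± 0.56 (SE; edgeR adjusted p = 0.000363). ENSGALG00000028371 rose by 2.53 ± 0.55 (SE; edgeR adjusted p = 0.00198), from 12.7 ± 8.57 and 7.44 ± 3.38 CPM to 66.7 ± 18.7 and 43.1 ± 34.4 CPM (SD, n = 3, high and low strength). Its low growth replicate 3, at 3.45 CPM, went against the rise, lying under every low initiation library, at 4.55, 6.61 and 11.2 CPM. The largest falls were in ENSGALG00000022234 and ENSGALG00000005995. In growth ENSGALG00000022234 held 6.98, 4.59 and 4.30 CPM in high and 4.78, 3.65 and 1.13 CPM in low strength, a log2 change of −4.13 ± 0.75 (SE; edgeR adjusted p = 0.000599). At initiation it had 166, 1.79 and 111 CPM in high and 85.3, 55.3 and 47.4 CPM in low strength. High initiation replicate 2 thus lay under every high growth library, while the low strength libraries of these periods did not overlap. ENSGALG00000005995 went from 127, 391 and 214 and 25.8, 61.5 and 99.4 CPM to 5.67, 10.3 and 18.4 and 8.19, 7.95 and 8.33 CPM, and its log2 change was −3.61 ± 0.54 (SE; edgeR adjusted p = 0.000153).

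From growth to termination the largest rises were in ENSGALG00000010470 and ENSGALG00000009262. ENSGALG00000010470 was a gene of the first and the last period. It stood at 121 ± 12.4 and 31.6 ± 17.02 CPM at initiation, 7.89 ± 6.19 and 5.79 ± 1.65 CPM in growth and 137 ± 88.7 and 73.4 ± 32.7 CPM at termination (high and low strength, SD, n = 3). Its log2 change from growth to termination was 4.23 ± 0.50 (SE; edgeR adjusted p = 3.35e-05). For ENSGALG00000009262, whose libraries are given above, that change was 3.31 ± 0.83 (SE; edgeR adjusted p = 0.00538). With 1 library left out at a time it ranged from 2.87 to 4.798, highest without high growth replicate 3. That library, at 113 CPM, lay above high termination replicate 2, at 22.6 CPM. The largest falls were in ENSGALG00000016400 and ENSGALG00000006449. ENSGALG00000016400 had 1.45, 6.78 and 4.11 and 1.49, 1.63 and 1.94 CPM in growth and 0.681, 1.19 and 0.196 and 0.136, 0.203 and 0.336 CPM at termination, a log2 change of −2.41 ± 0.55 (SE; edgeR adjusted p = 0.00314). After its rise, ENSGALG00000006449 changed by −2.13 ± 0.54 (SE; edgeR adjusted p = 0.00537), although high termination replicate 2 stayed at 54.1 CPM, above high growth replicate 2 at 42.7 CPM. With 1 library left out at a time the change ranged from −2.92, without high termination replicate 2, to −1.88.

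Between initiation and termination ENSGALG00000019276 rose the most. It had 16.7, 23.7 and 21.8 and 7.94, 10.2 and 11.2 CPM at initiation, 23.0, 33.9 and 31.4 and 16.3, 13.1 and 19.3 CPM in growth, and 188, 64.3 and 180.2 and 99.0, 100.4 and 119 CPM at termination. Its log2 change was 3.52 ± 0.26 (SE; edgeR adjusted p = 2.20e-07). The highest growth library lay under the lowest termination library in both strength groups. ENSGALG00000026107 rose by 2.92 ± 0.44 (SE; edgeR adjusted p = 0.000171), and by 1.91 by limma-voom. With 1 library left out at a time the edgeR change ranged from 2.35 to 3.23. Its high strength libraries overlapped between these periods, at 2.85, 3.94 and 9.07 CPM at initiation and 8.65, 10.3 and 36.1 CPM at termination. The largest falls were −4.90 ± 0.79 (SE; edgeR adjusted p = 0.000341) in ENSGALG00000022234, down to 3.37 ± 1.64 and 1.17 ± 0.992 CPM, and −2.46 ± 0.55 (SE; edgeR adjusted p = 0.00422) in ENSGALG00000009639. For ENSGALG00000022234, high initiation replicate 2, at 1.79 CPM, lay within the range of high termination, 1.57 to 4.77 CPM. The first member, ENSGALG00000016142, also fell, by 2.43 ± 0.58 (SE; edgeR adjusted p = 0.00632) on the log2 scale.

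**Figure D5:**
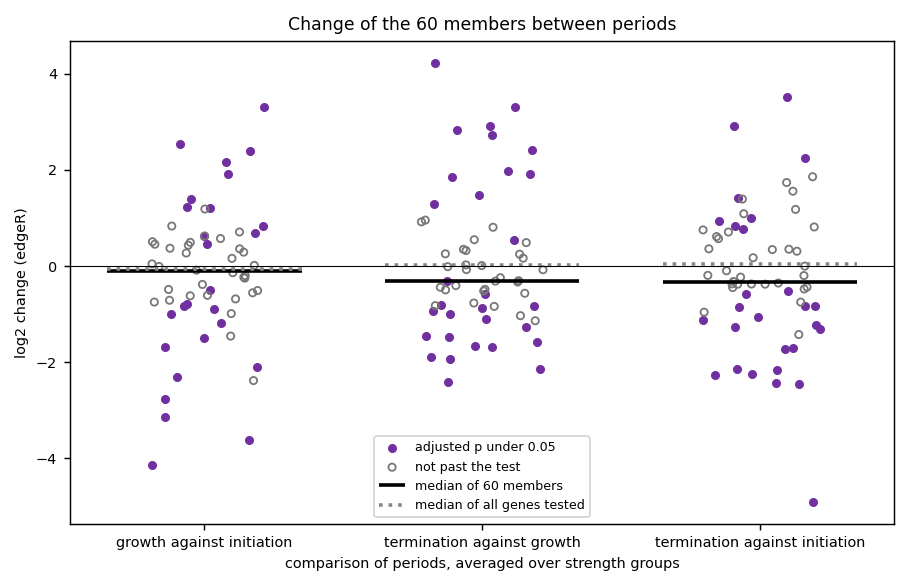
Log2 change of each of the 60 members between periods, averaged over the strength groups, by edgeR; filled points passed an adjusted p of 0.05, open points did not, solid bars are medians of the members and dotted bars medians of all 16110 genes tested. Members changed in both directions in each comparison, with more falls than rises between initiation and termination (19 against 8).

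By the period of their highest mean the members fell into 3 sets. In high strength, 31 were highest at initiation, 17 in growth and 12 at termination (42.7%, 41.4% and 15.9% of all rows tested). In low strength the numbers were 26, 22 and 12 (45.1%, 40.5% and 14.4% of all rows tested). The highest period was the same in both strength groups for 51 of 60 members, where it was for 65.2% of all rows tested: 25 at initiation, 17 in growth and 9 at termination. These are the group means that the rule used, and nothing is read from that difference. Of the initiation set, ENSGALG00000011254 was at 36.0 ± 3.25 and 26.0 ± 5.44 CPM, 19.6 ± 10.5 and 14.1 ± 0.755 CPM, and 13.3 ± 7.06 and 6.90 ± 2.06 CPM in the order of the periods (high and low strength, SD, n = 3). Of the growth set, ENSGALG00000008930 was at 96.5 ± 17.5 and 62.2 ± 10.7 CPM, 139 ± 85.7 and 87.0 ± 25.3 CPM, and 33.0 ± 10.1 and 24.1 ± 10.8 CPM. Of the termination set, ENSGALG00000008681 was at 31.7 ± 12.4 and 24.4 ± 4.68 CPM, 37.3 ± 10.04 and 26.7 ± 4.22 CPM, and 131 ± 47.1 and 76.8 ± 9.08 CPM. ENSGALG00000016811 had a higher mean in each later period in both strength groups, at 116 ± 5.69 and 59.9 ± 5.06 CPM, 131 ± 27.9 and 90.1 ± 18.9 CPM, and 166 ± 48.5 and 104 ± 37.9 CPM; these 4 were picked as examples after the values were seen.

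The members ranged from 0.504 to 113 CPM in their median over the 18 libraries, with a middle value of 13.9 CPM against 22.9 CPM for all rows tested. These levels are not per gene length and do not rank the genes by transcript number. At least 1 group had a mean under 1 CPM for 10 members, and 18 had a mean over 100 CPM in at least 1 group. For the former the added 1 CPM holds the ratio down. At the low end, ENSGALG00000019290 had growth values of 1.74, 1.24 and 1.37 CPM in high and 0.496, 1.04 and 0.752 CPM in low strength, and 0 counts in low initiation replicate 2, where 3 counts would be 0.213 CPM (counting error only). The list itself depended on single libraries. Leaving out 1 library at a time and repeating the choice kept 42 to 56 of the 60 members, fewest without high growth replicate 2 or 3, and 6 members were kept whichever library was left out: ENSGALG00000016142, ENSGALG00000014965, ENSGALG00000009639, ENSGALG00000004859, ENSGALG00000016326 and ENSGALG00000006717.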

How the data were processed

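RNA of 18 uterus samples was sequenced from TruSeq libraries of Trizol extracts, per the labels' protocols. Bowtie2, TopHat, TopHat2 and the build galGal4 are named, per the submitters' processing notes. How reads were counted, whether by strand and on which annotation is not given in the sources used here. Paralogs, overlapping and antisense genes are therefore uncertain. A table deposited by the authors as normalized was treated as raw counts of each gene: none was fractional, and totals were 0.663 to 0.707 of the clean read pairs. The authors also deposited read statistics, with the GC percent and the percent of bases reaching quality 30; values of mate 1 were used.

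The members and lists were chosen with earlier results of these data known. The rule took CPM over the column sum. The test was edgeR 4.0.16 (R 4.3.3) by quasi-likelihood on TMM-scaled counts of genes above 1 CPM in at least 3 libraries, 1 mean per group, two-sided, Benjamini-Hochberg over all genes, threshold 0.05. It was also run on simulated counts, with 1 mean per gene in all groups apart from changes planted in growth. The simulation held no strength differences, so it does not check the test under the conditions of these data. Standard errors were the log2 change over the square root of F. No p-value is given for high against low strength, which chose the members. Alternatives were DESeq2 1.42.0, limma-voom (limma 3.58.1) with library weights, total-count scaling, no low-count filter, the replicate number as a block, the 2 compared periods alone, each library left out, and other forms of the rule. Text names the 15 highest scores, 3 rows on either side of the limit and, shortened from 4 since no identifier has a name, 2 rises and 2 falls per comparison; other members were named after their values were seen. Gene lists fixed by symbol could not be used. Tables and plots were made in Python 3.11.15 with pandas 2.3.3 and matplotlib 3.10.9.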

Additional observations from a re-analysis of the deposited data

Results flagged for a closer look

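ENSGALG00000017068 moved in opposite directions between initiation and termination in the strength groups. Every high termination library, at 30.9, 26.5 and 13.6 CPM, lay under every high initiation library, at 32.5, 33.9 and 32.8 CPM, while every low termination library, at 13.3, 12.9 and 12.0 CPM, lay above every low initiation library, at 4.82, 5.90 and 6.22 CPM. On the log2(CPM + 1) scale the change in high strength minus that in low strength was −1.51. The difference was not tested, since the rule that chose the gene used the same ratios, and with TMM scaling the libraries of high strength overlapped between these periods. It was the only such case among the 60 members and 3 comparisons of periods.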

How the results depend on the processing

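The numbers of members called between periods were 26, 30 and 27 for growth against initiation, termination against growth and termination against initiation. With limma-voom and library weights the first and the third were both 40 and the second 29, while 75.8% of all genes were called in the first and 56.5% in the third; DESeq2, total-count scaling, no filter and the 2 periods alone left each count within 1.5 times. Leaving out 1 library at a time gave 21 to 34, 25 to 32 and 25 to 32. With the replicate block the counts were 27, 30 and 28. The deviations of same-numbered libraries of different groups had a median correlation of 0.0127, against −0.00834 for other numbers. Of the 45 same-numbered pairs, 11 correlated above 0.1, and the range was −0.427 to 0.737. Deviations within a group of 3 are not independent, so these values cannot show whether the numbers pair libraries. The 12 changes between periods given by name stayed past the threshold in the same direction in all 288 refits (24 for each). These changes were picked as the largest of those called, and the refits reuse most of the same libraries. Their agreement is therefore not independent support. Choosing by the median of the 3 libraries in place of their mean kept 33 of the 60 members, by TMM-scaled CPM 50, with 0.5 or 5 CPM added 53 or 45, with rows outside the Ensembl annotation 40, with no upper limit on level 60, and with 1 library left out 42 to 56. The median log2 ratio of the members ranged from 0.74 to 1.10 at initiation, 0.50 to 0.76 in growth and 0.67 to 0.92 at termination with 1 library left out. These alternatives for the ratios, and those for the counts without overlap, were chosen after seeing the data; at termination that count was 13 (8.15% of all rows), 6 with TMM (6.08%) and 44 without high termination replicate 3 (48.4%). The cause of these shifts was not tested. With 3 libraries a group, members under 1 CPM rest on few counts.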

Other observations

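Rows that carry a serial number and no Ensembl identifier were not open to the rule, and 37 of these 3758 rows scored as high as the last member or higher. Novel01871 scored highest of these, at 1.36, but its libraries varied widely: high strength CPM was 4.45 ± 5.33 at initiation (low strength 1.13 ± 1.66), 18.4 ± 17.5 in growth (5.78 ± 8.36) and 7.89 ± 8.90 at termination (1.10 ± 0.326; SD, n = 3). Novel01045 scored 0.98, at 22.6 ± 4.99 against 5.30 ± 2.54 CPM, 46.3 ± 30.8 against 23.0 ± 10.8 CPM and 15.9 ± 11.2 against 3.96 ± 0.875 CPM in the order of the periods. Novel00133 was among the more abundant, in growth at 312 ± 29.9 against 209 ± 160.2 CPM. Some of these rows had nearly equal levels, such as Novel00526 and Novel00554 with 44.6 ± 5.41 and 42.9 ± 5.15 CPM in high growth; the table holds no positions, and whether they share reads was not tested. These loci were named after their values were seen, and no test was run on them.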
